A study of Saccharomyces cerevisiae with 4 samples.

Results

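Chromatin immunoprecipitation with the FLAG M2 antibody was sequenced from budding yeast with FLAG-tagged Acs2 and from an untagged strain, and the 274 peaks described here are those of the Acs2-FLAG library whose summit lay downstream of the midpoint of a protein-coding gene in reading direction, called 3′-side peaks below. They were taken from the 912 peaks of the Acs2-FLAG list in 3 steps. Of the 912 peaks, 22 shared a base with a peak of the untagged list and were left out. Another 327 met a tRNA, small nucleolar RNA, ribosomal RNA or other non-coding RNA gene of the RefSeq R64 annotation, with antisense RNAs ignored, and were left out too. Among the 563 remaining peaks, the summit lay on the 3′ side of a gene's midpoint at 274, on the 5′ side at 174, and in no protein-coding gene at 115. The 274 peaks lay in 272 genes, since ACC1 and FKS1 held 2 each, and no summit of the 274 lay in more than 1 gene. Each chromosome had some, from 5 on chromosomes I and III to 36 on chromosome IV.

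Cultures of both strains in YPD, a rich medium, with 2% glucose were kept at 28 °C until their OD600 was between 0.7 and 1.0, then fixed with 1% formaldehyde. The untagged group carries no FLAG epitope, and the Acs2-FLAG group differs from it, as far as the labels say, by the tagged Acs2. Each strain gave 1 input library without antibody and 1 immunoprecipitate, so replicate error is unknown throughout and the strains could not be compared by a test. The fold enrichment of a peak is the authors' own value at the summit, taken here as the ratio of the immunoprecipitate to the local background, although the file headers name the input first and do not state the direction. The 95% intervals in parentheses after a fold are exact Poisson intervals of the recovered fragment count; they cover counting error only.

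Acs2 is an acetyl-CoA synthetase of budding yeast, found in the nucleus and the cytosol, and it makes acetyl-CoA from acetate, among other uses for the acetylation of histones. Acetylated histones are known from the promoters and the first nucleosomes of transcribed genes. The 3′ part of a yeast gene is where RNA polymerase II slows, the transcript is cleaved and polyadenylated, and, in this compact genome, where the promoter of the next gene or the end of a convergent gene often begins. Highly transcribed genes are known to give signal over the gene body in many yeast immunoprecipitations, with or without a tagged protein.

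The untagged library gives the background measured the same way. Of its 24 nuclear peaks, 17 had the summit in a protein-coding gene, and 15 of these 17 (88.2%, exact Clopper-Pearson interval 63.6 to 98.5) lay on the 3′ side. They were at TDH3 (95.5% of the way through the gene, untagged fold 1.91), CCW12 (69.3%, 1.73), ADH1 (74.4%, 1.62), FBA1 (54.4%, 1.61), PMA1 (73.7%, 1.48), ENO2, PGK1, PDC1, TEF2, CDC19, GPM1, PDR5, TEF1, SED1 and MDH2. The other 2 summits were at TEF1, which held 2 untagged peaks, and ILV5. The placement of summits on the 3′ side was thus also present without a tagged protein, among them at genes for enzymes of glycolysis and fermentation, elongation factor EF-1 alpha, membrane or cell wall proteins and, with MDH2, a cytosolic malate dehydrogenase. At the 18 shared Acs2-FLAG peaks outside the ribosomal DNA, 17 summits lay in a gene and 12 of them on its 3′ side.

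No member shared a base with an untagged peak, because the rule removed those that did. The nearest untagged peak lay 566 bp away from the SPL2 peak and 687 bp away from the MPE1 peak, and 10 of the 274 peaks had one within 10 kb. A weak untagged signal could have gone uncalled. At its lowest background of 198.4 fragments per base, the untagged list needed a fold of 1.26 to reach its own lowest −log10 p of 3.85, and 57 of the 274 peaks had a fold below that. Outside the ribosomal DNA, no Acs2-FLAG peak that overlapped an untagged one had a fold below 2.07, and 17 of the 274 peaks (6.20%, interval 3.66 to 9.75) reached this level. The part of untagged signal in the fold was not tested for any of the 274 peaks.

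The fold of the 274 peaks had a median of 1.36, with quartiles of 1.28 and 1.58, and ran from 1.15 to 4.13. The median was 1.34 (quartiles 1.27 and 1.52) at the 174 peaks of the 5′ side and 1.42 (1.30 and 1.63) at the 115 peaks between genes. It was 3.18 at the 264 peaks over tRNA genes of the same list. The median width was 663.5 bp on the 3′ side, 806.0 bp on the 5′ side and 448.0 bp between genes. The recovered local background had a median of 312.6 fragments per base on the 3′ side and 318.7 on the 5′ side. Recovered counts were accepted only at a background of 291.1 or more, the level at which 27 of the 274 peaks lay. This common floor partly fixes beforehand how close these medians are.

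**Figure D1:**
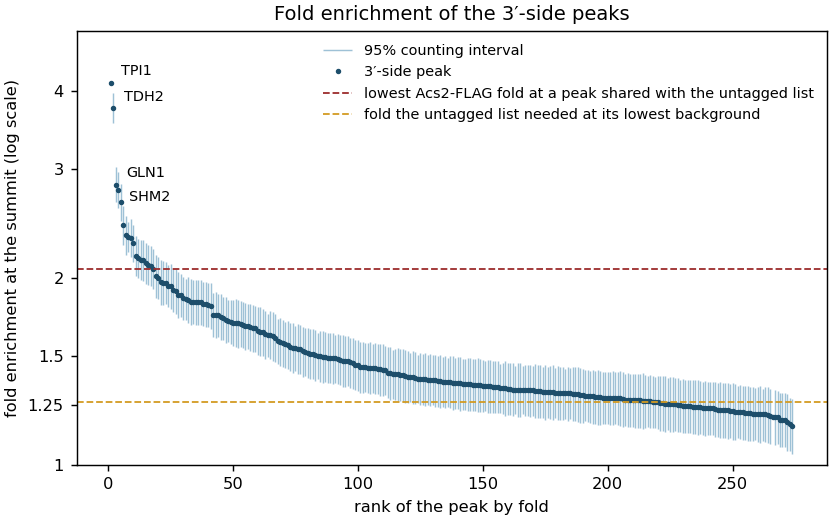
Fold enrichment at the summit (log axis) of the 274 3′-side peaks in order of rank; points are peaks and vertical lines their 95% counting intervals, which 2 peaks lack. The lower dashed line marks the fold of 1.26 that the untagged list needed, with 57 peaks below it, and the upper the fold of 2.07, the lowest at a shared peak outside the ribosomal DNA, with 17 peaks above it.

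The position of the summit within the gene, the measure that the rule used, is described without a test. Of the 448 summits in gene bodies, 61.2% (interval 56.5 to 65.7) lay on the 3′ side, which holds 50.3% of the coding bases. Gene length and midpoint are those of the annotated gene span, introns included, and not of the coding sequence alone. In 10 equal bins of the gene from start to end, the counts were 12, 28, 43, 44, 47, 53, 46, 65, 57 and 53. The first bin, with 2.68% of the summits against 9.83% of the coding bases, and the second were the lowest, while the last 5 bins ran from 46 to 65. The unequal split thus came with few summits at gene starts and no single peak of counts at gene ends. The median fold differed little between bins and ran from 1.33 to 1.40.

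**Figure D2:**
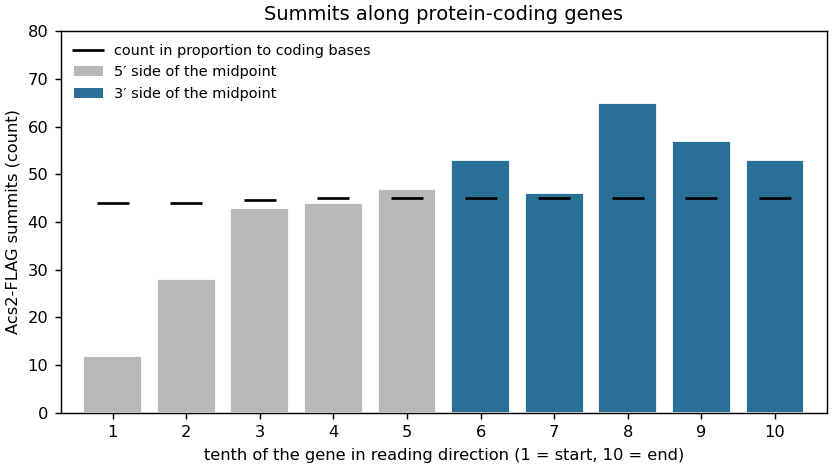
Number of Acs2-FLAG summits in each of 10 equal bins along the gene, over 448 summits in protein-coding genes, with the 5′ side in grey and the 3′ side in blue. Black marks give the count that the share of coding bases would put there; the first bin holds 12 summits and the eighth 65.

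The 3′-side share went down with gene length. In the class of the shortest genes at these summits, 150 to 666 bp, 85 of 114 summits (74.6%, interval 65.6 to 82.3) lay on the 3′ side. The share was 62.7% from 669 to 1055 bp, 58.9% from 1056 to 1638 bp, and 48.2% (38.7 to 57.9) from 1641 to 6702 bp, where 54 of 112 summits lay on the 3′ side. In the 3592 genes of at least 1000 bp, the share was 55.5% (48.9 to 61.9). There, 18 summits lay in the first 250 bp and 39 in the next 250 bp, against 48 in the last 250 bp and 48 in the 250 bp before those. The genes of the 274 peaks had a median length of 970.5 bp, those of the 5′-side peaks 1218 bp and all 6002 nuclear protein-coding genes 1200 bp.

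**Figure D3:**
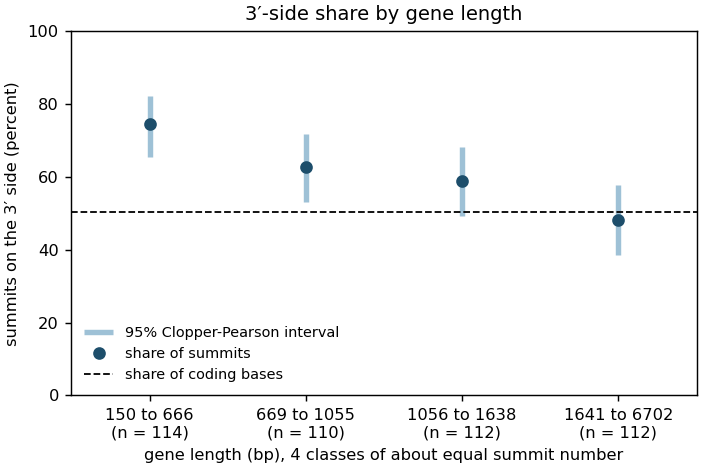
Share of gene-body summits on the 3′ side (percent) in 4 classes of gene length; points are shares, bars exact 95% Clopper-Pearson intervals, and the dashed line the 50.3% of coding bases on the 3′ side. The share is 74.6% in genes of 150 to 666 bp and 48.2% in genes of 1641 to 6702 bp.

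Measured from the annotated end, the summits lay a median of 210.0 bp inside the gene (quartiles 110.5 and 349.0). Within 100 bp of the end lay 63 of the 274 summits, and within 500 bp 238. The closest was the SLM3 summit, 1 bp before the end, with a fold of 1.49. The farthest was 3240 bp before the end, in ACC1. At the gene middle, which the rule used as its border, the nearest summits inside it were those of LSP1 (50.2% of the way through the gene, fold 1.85), ADE4 (50.7%, 1.66) and SPO24 (50.7%, 2.65). Just outside it were MUP3 (49.6%, 1.43), SIS1 (49.6%, 1.52) and RPS20 (49.6%, 1.42). At 71 of the 274 peaks the summit was within 100 bp of the gene middle, so that the assignment to a side rests on a short distance there.

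The peaks reached past the annotated end of their gene in 203 of 274 cases (74.1%, interval 68.5 to 79.2), by a median of 106.0 bp over all 274. By extent, 72 peaks held the whole gene, 131 began inside the gene and passed its end, 67 lay inside the gene, and 4 passed the start only. At the 5′-side peaks, 42.0% passed the end, 40.2% passed the start and 24.1% held the whole gene, a share close to the 26.3% at the 3′-side peaks. Extent went with strength. All 34 strongest peaks held their whole gene, and so did 42 of 63 with a fold from 1.5 to 2. Of the 47 weakest peaks, 1 held its whole gene and 27 lay inside it. Median width went from 405.0 bp at those 47 to 1683.5 bp at the 20 peaks with a fold of at least 2, and the part of peak height in where the caller sets an edge was not tested.

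**Figure D4:**
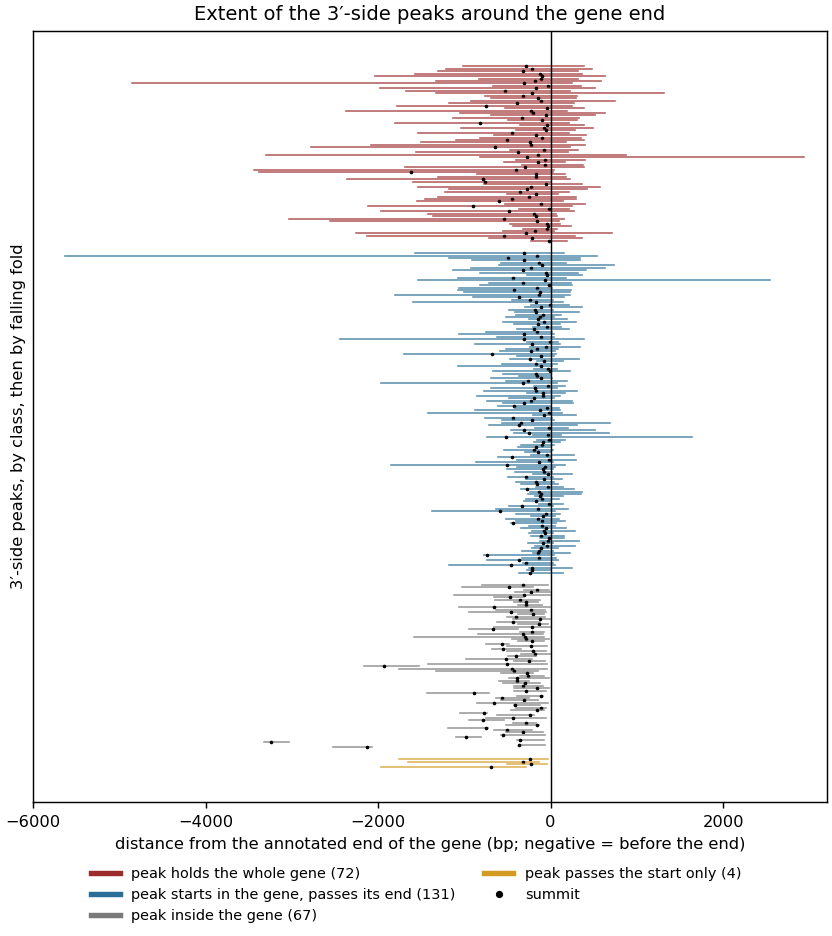
Extent of each of the 274 peaks (line) and its summit (black dot) as distance in bp from the annotated end of its gene, with negative values before the end, grouped by extent and sorted by falling fold within each group. The 72 peaks that hold their gene and the 131 that only pass its end cross the zero line, and the 67 peaks inside the gene end before it.

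Along the chromosome, the next protein-coding gene after the end ran in the same direction at 167 of the 274 peaks (60.9%, interval 54.9 to 66.8), at 58.6% of the 5′-side peaks, and at 48.1% of all genes. Median folds were 1.34 for the 167 tandem cases and 1.40 for the 107 convergent cases. A summit lay in the 500 bp before the start of another gene at 38 of the 274 peaks (13.9%, interval 10.0 to 18.5), against 7.74% of all 3′-side bases. On the 5′ side it was 2.87% of the summits, against 6.71% of the bases. With a window of 250 bp it was 4 of the 274 peaks (1.46%), against 0.888% of the 3′-side bases. The bases are those of all genes and were not matched for gene length or for the direction of the next gene. Of the 38 peaks with the 500 bp window, 36 were tandem cases. The strongest of the 38 were at RPL10, before FMP25, with a fold of 2.14, and at CWP2, before YKL096C-B, with 2.11. Then came NCW1, before YMR122C, with 1.97, SNA3, before INO1, with 1.90, and PHO4, before QCR6, with 1.70. At CWP2 and NCW1 this neighbour lay on the side of the gene start and ran in the opposite direction. The median fold was 1.34 at these 38 and 1.36 at the other 3′-side peaks. A peak met 1 protein-coding gene at 215 of the 274, 2 genes at 52 and 3 or more at 7. The convergent neighbour was reached by 40 of the 107 convergent peaks and the tandem neighbour by 10 of 167. The longest reach past an end was 2941 bp at HNT1, over the downstream CDC48, then 2544 bp at HSP60 and 1641 bp at BDH2, over BDH1.

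Non-coding RNA genes, which held the stronger tRNA peaks given above, were seldom near, after the rule had removed the peaks that met one. A peak edge lay within 1 kb of one at 9 of the 274 peaks (3.28%, interval 1.51 to 6.14) and at 5.17% of 5′-side peaks. The 9 were at GPD1, POR1, ASN1, ATP1, RPL30, VMA3, YOP1, TAT2 and RPL7A, the last with SNR39 84 bp away. Counted from the summit, it was 1.09% of the peaks against 3.43% of 3′-side bases, a count that the removal of peaks over such genes lowers. The median distance to the nearest one was 12191 bp.

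The strongest members were at glycolytic genes. TPI1, for triosephosphate isomerase (chromosome IV, 555726 to 556472), had a fold of 4.13, with the summit 62.5% of the way through the gene and no interval, since its fragment count could not be recovered. TDH2, for glyceraldehyde-3-phosphate dehydrogenase (chromosome X, 453683 to 454681), had 3.76 (3.55 to 3.98). Both values lay above the interval of the GLN1 peak, next in rank. PGI1, for phosphoglucose isomerase, had 2.09 (1.94 to 2.25), TDH1 1.97 (1.81 to 2.13), the hexokinase genes HXK2 1.88 (1.72 to 2.04) and HXK1 1.64, and PFK1, for a phosphofructokinase subunit, 1.49 (1.36 to 1.64). These 7 of the 22 genes of glycolysis and fermentation (31.8%) had a 3′-side peak, against 4.53% of all 6002 nuclear protein-coding genes. This list and those below were written with earlier results of these data known, so their shares are a description. Another 8 of the 22 had a peak that overlapped an untagged one, 3 had a 5′-side peak and 4 had none. The genes with untagged signal in this list were thus about as many as those with an unshared 3′-side peak. TDH1, TDH2 and TDH3 are similar in sequence, so reads may be split among them.

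Nitrogen and one-carbon enzymes came next. GLN1, for glutamine synthetase (chromosome XVI, 642208 to 643320), had a fold of 2.83 (2.65 to 3.02). SHM2, for cytosolic serine hydroxymethyltransferase (chromosome XII, 257992 to 259401), had 2.77 (2.59 to 2.96), with the summit 91.2% of the way through the gene. Their intervals overlapped. SHM2 was also the one gene of the 6 of the SESAME complex, to which Acs2 itself belongs, with a 3′-side peak; SAM1 had a 5′-side peak, CDC19 a shared one, and SAM2, SER33 and ACS2 itself none. In the list of serine, one-carbon and methionine metabolism, 8 of 26 genes (30.8%) had a 3′-side peak. Besides SHM2 these were GCV1, for a subunit of the glycine cleavage complex, with 1.74 (1.61 to 1.89), ADE3 with 1.70, SAH1, for S-adenosylhomocysteine hydrolase, with an interval of 1.37 to 1.65, GCV3 with 1.46, CYS3 with 1.32, CYS4 with 1.27 and GCV2 with 1.21 (1.09 to 1.33). Amino acid synthesis, with 4 of 55 genes (7.27%, interval 2.02 to 17.6), was near the share of all genes; after GLN1 its members were ASN1 with 1.62, LYS20 with 1.37 and GDH1 with 1.32. Of these genes, GLN1 and SHM2 were at or above 2.07, and GCV2 was below the fold that the untagged list needed. GCV2 also had a 5′-side peak, with a fold of 1.22. In the serine, one-carbon and methionine list, another 3 of the 26 genes had a 5′-side peak and 1 a shared one.

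Among the 20 strongest members were several others outside those pathways. SPO24, a gene of 204 bp, had 2.65 (2.48 to 2.84) in a peak of 2667 bp that also met VMA13 and ERV2, so the gene at its summit is a small part of it. CPR1, for a cytosolic cyclophilin, had 2.43 (2.26 to 2.61), TSA1, for a peroxiredoxin, 2.35 (2.18 to 2.52), and SOD1, for copper-zinc superoxide dismutase, 2.32 (2.16 to 2.49), with its summit 26 bp before the gene end. HPF1, for a cell wall mannoprotein, had 2.33 (2.20 to 2.46) at the highest recovered background of the members, 515.6 fragments per base. GPD1, for glycerol-3-phosphate dehydrogenase, had 2.17 (2.02 to 2.33) and PNC1, for nicotinamidase, 2.14. ACT1, for actin, had 2.01 (1.86 to 2.18), and GPP1, for glycerol-3-phosphate phosphatase, 2.00 (1.85 to 2.16). From CPR1 down to GPP1 each interval overlapped that of the next, while those of CPR1 and TSA1 lay wholly above those of ACT1 and GPP1.

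Histone genes had 3′-side peaks at 4 of 10. HHT2, for histone H3, had a fold of 2.28 (2.12 to 2.44), in a peak that also held HHF2 and reached SIW14 and KTR5. HTA2, for H2A, had 2.07 (1.92 to 2.23), HTA1 1.85 (1.71 to 2.00) and HHF1, for H4, 1.81 (1.67 to 1.96). The lowest of the 4 lay above the upper quartile of all 3′-side peaks, 1.58. Of the other 6 histone genes, 3 had a 5′-side peak, 2 lay in a peak with its summit elsewhere and 1 had none. The histone pairs are near-identical copies, so the value of a single copy is uncertain.

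Cell wall protein genes had 3′-side peaks at 9 of 22 (40.9%, interval 20.7 to 63.6). HSP150, for a heat shock mannoprotein, had 2.15 (2.00 to 2.31) in a peak that ran 1310 bp past its end over the convergent CIS3. CWP2 had 2.11 (1.95 to 2.28), ECM33 1.82 (1.67 to 1.97) in a peak of 4174 bp that met SLM4 and RPG1, and GAS1, for a glucan-remodelling enzyme, 1.71 (1.57 to 1.86). EXG1, BGL2, SCW4, TIP1 and CWP1 ran from 1.57 down to 1.31. FKS1, for a glucan synthase subunit, is not on that list and held 2 weak peaks, one with a fold of 1.27 (1.14 to 1.40) and one with an interval of 1.09 to 1.33, beside a 5′-side peak. Of the 22 cell wall genes, 2 had a shared peak, CCW12 and SED1, whose untagged summits were on the 3′ side as well. Another 2 of the 22 had a 5′-side peak.

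Cytosolic ribosomal protein genes gave the largest group by number, 45 of 137 (32.8%, interval 25.1 to 41.4). RPL10 had 2.14 (1.98 to 2.30) and RPL3 2.10 (1.95 to 2.26), followed by RPS31 with 1.74, RPL15A with 1.73, RPS12 with 1.67, RPL28 with 1.67 and RPS2 with 1.66. The median over the 45 was 1.36, equal to that of all 3′-side peaks, and the lowest was RPL20B with 1.21 (1.09 to 1.34). The list thus stood out by the count of genes and not by the fold, and it was written with earlier results of these data known. By subunit, 28 of 76 large-subunit genes, 13 of 56 small-subunit genes and 4 of 5 stalk genes had such a peak. The stalk genes were RPP2B with 1.54, RPP1A with 1.49, RPP2A with 1.47 and RPP1B with 1.28. Of the 92 other ribosomal protein genes, 20 had a 5′-side peak, 15 a peak with its summit elsewhere, 9 a peak over a non-coding RNA gene, 1 a shared peak and 47 none.

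Most ribosomal proteins of yeast are encoded by a pair of paralogs. Both genes of a pair had a 3′-side peak in 5 of 59 pairs, one gene in 22 and neither in 32. The 5 pairs were RPL4A with 1.58 and RPL4B with 1.32, RPL35A with 1.36 and RPL35B with 1.31, RPS23A with 1.35 and RPS23B with 1.27, RPP1A and RPP1B, and RPP2A and RPP2B. Among the 19 genes without a paralog, 13 had a 3′-side peak, among them RPL10, RPL3, RPS31, RPS12, RPL28 and RPS2. Reads from near-identical copies cannot be placed with certainty, and how the authors treated such reads is not stated in the labels.

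Chaperone and heat shock genes had 3′-side peaks at 9 of 24 (37.5%, interval 18.8 to 59.4), led by CPR1 and TSA1. HSP60, for the mitochondrial chaperonin, had 1.58 (1.44 to 1.72), KAR2, for the Hsp70 of the endoplasmic reticulum, 1.54 (1.42 to 1.67), SSB1 1.35, HSP82, for Hsp90, 1.35, HSP42 1.34, SSB2 1.30 and STI1 1.23. Another 6 of the 24 had a 5′-side peak. HSP82 and SSB2 had one on each side of the midpoint, with 5′-side folds of 1.16 and 1.24.

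Nucleotide synthesis genes had 3′-side peaks at 6 of 29 (20.7%, interval 7.99 to 39.7), and the 4 strongest belonged to purine synthesis. ADE13 had 1.84 (1.69 to 2.00), ADE2 1.83 (1.68 to 1.98), ADE1 1.74 (1.61 to 1.89) and ADE4 1.66 (1.52 to 1.81), with overlapping intervals. RNR1, for ribonucleotide reductase, had 1.43 and YNK1 1.28. Another 6 of the 29 had a 5′-side peak, 3 a peak with its summit elsewhere and 1 a peak over a non-coding RNA gene. Purine synthesis genes had 5′-side peaks too, among them ADE17 with 2.99 (2.79 to 3.19), above all 3′-side ADE genes, and ADE57 with 1.75. Purine synthesis was thus not particular to the 3′ side.

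The list for the making of fatty acids, sterols and acetyl-CoA had 3′-side peaks at 6 of 27 genes (22.2%, interval 8.62 to 42.3), and 5′-side peaks at another 6. FAS2, for a fatty acid synthase subunit, had 1.81 (1.65 to 1.97), with the summit 97.3% of the way through a gene of 5664 bp and the widest of the 274 peaks, 6162 bp. ELO1 had 1.36 (1.23 to 1.49), PDA1 1.29, ERG25 1.22 and ERG1 1.21. ACC1, for acetyl-CoA carboxylase, held 2 of the weakest peaks, 1.18 (1.07 to 1.30) and 1.15 (1.04 to 1.28), the latter the lowest fold of all 274. ACC1 also had 5′-side peaks with folds of 1.32 and 1.24, and ERG1 had one with 1.22. Of the 6 genes, FAS2 was above the upper quartile of all 3′-side peaks.

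Plasma membrane transporter genes had 3′-side peaks at 7 of 34 (20.6%, interval 8.70 to 37.9), with the phosphate transporter gene PHO84 at 1.94 (1.80 to 2.10) and the others, QDR2, AGP1, TAT2, BAP3, GNP1 and TPO1, from 1.34 to 1.21. Another 7 of the 34 had a 5′-side peak and 2 a shared one. The vacuolar proton ATPase had 3 of 15, with VMA3 at 1.38 (1.26 to 1.51) and VMA6 at 1.26. Proteasome genes had 5 of 33 (15.2%, interval 5.11 to 31.9), all weak, with RPN10 at 1.31 (1.19 to 1.45) and PRE10 at 1.27 and the lowest, PRE3, at 1.16 (1.05 to 1.28). Another 3 of the 33 had a 5′-side peak and 4 a peak with its summit elsewhere. The cytoskeleton list had 3 of 21, ACT1, COF1 at 1.35 and PFY1 at 1.31.

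At the other lists, 3′-side peaks were about as frequent as over all genes or rarer. They were found at 3 of 41 genes of the citrate cycle and respiration (ATP2 at 1.54 and ATP1 at 1.45 the strongest) and 2 of 36 of secretion (ARF1 at 1.33 and ARF2 at 1.30). Of the aminoacyl-tRNA synthetase genes 1 of 21 had one (TYS1 at 1.21), of the translation factor genes 1 of 34 (SUI1 at 1.42), and of the mitochondrial ribosomal protein genes 1 of 67 (MRPS12 at 1.30). None was found at 55 ribosome biogenesis genes (upper exact bound 6.49%), 33 autophagy genes (10.6%) and 27 genes of RNA polymerase III and its factors (12.8%). Of the 27 genes for the polymerase and its factors, none met any Acs2-FLAG peak. Translation factor genes had 6 5′-side peaks, 2 shared ones and 3 over non-coding RNA genes beside the single 3′-side one. At the ribosomal protein genes, 45 had a 3′-side peak and 20 a 5′-side one. This contrast rests on few factor genes and was not tested. The 3′-side share fell from 74.6% in the shortest to 48.2% in the longest genes, and the part of gene length in the contrast was not tested either.

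**Figure D5:**
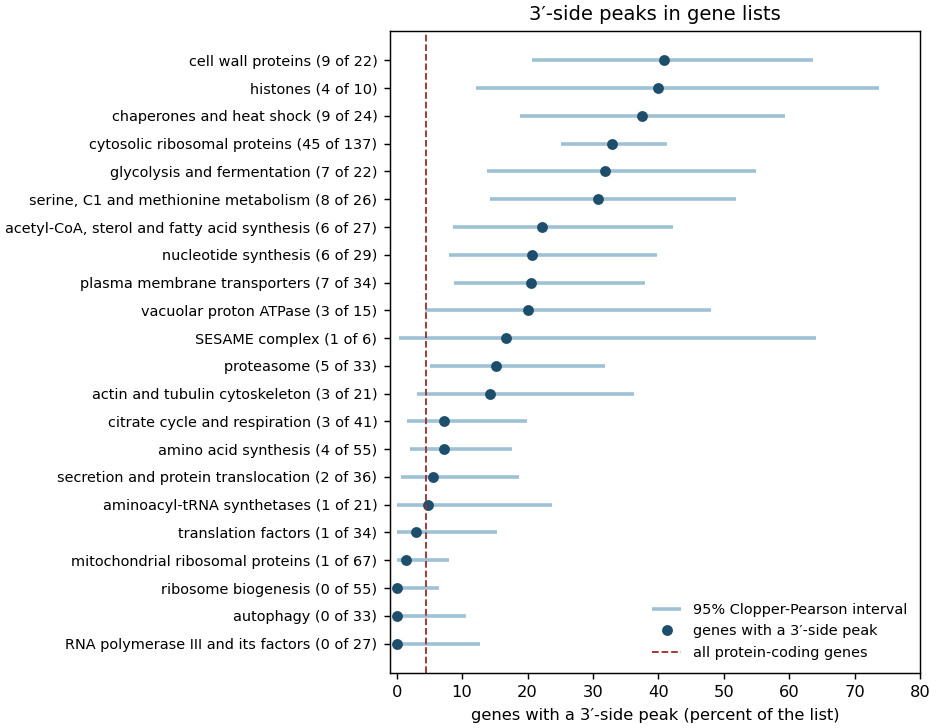
Share of the genes of each list with a 3′-side Acs2-FLAG peak (percent; point) with its exact 95% Clopper-Pearson interval (bar), for 22 lists. The dashed line is the 4.53% of all 6002 nuclear protein-coding genes; cell wall, histone, chaperone, ribosomal protein, glycolysis and serine lists lie between 30.8% and 40.9%, and 3 lists are at 0. The lists were written with earlier results of these data known.

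Of the 272 genes with a 3′-side peak, 14 had a 5′-side peak as well. Over all 6002 genes, 159 (2.65%) had a 5′-side peak and no 3′-side one, and 86.5% met no Acs2-FLAG peak. The share of all genes with any 5′-side peak counts the 14 besides these 159 and is thus slightly above 2.65%. The overlap is given as a count and was not tested. The strongest of the 14 by the 3′-side fold were WTM1, with 1.46 (1.33 to 1.60) on the 3′ side and 1.34 on the 5′ side, PTK1 with 1.38 and 1.29, HSP82, FRA1 with 1.31 and 1.36, and SSB2. In GNP1 the 5′-side fold of 1.46 (1.33 to 1.61) was above the 3′-side fold of 1.22 (1.10 to 1.35), with intervals that overlapped. The other weakest members were PRE3, and IPT1, for an enzyme of sphingolipid synthesis, with 1.17 (1.05 to 1.30). All these intervals lie above 1, which the calling of a peak on the same counts fixes beforehand.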

How the data were processed

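The authors deposited 2 narrowPeak lists, 1 for each immunoprecipitate, each set beside its own input per the file headers. The headers name the input first; the folds were taken here as immunoprecipitate over input, and the direction is not stated in the files. Per the submitters' processing notes, Trimmomatic, BWA, Picard and MACS2 were used on build R64; settings and sequencing depth are not stated there. The deposited fold is a ratio over local background, and the deposited −log10 p and −log10 q belong to the summit. The deposited score, 10 times the −log10 q, was not used.

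Genes came from a RefSeq R64 table of 6477 genes, with strand from the systematic name. Chromosome accessions were checked on 275 tRNA genes: at least 70.0% per chromosome met a peak under its own name and at most 30.8% under another. Peaks sharing 1 bp or more counted as overlapping. Fragment counts were solved from fold = (n + 1)/(background + 1) and a Poisson tail. A count was accepted when whole within 0.05 and at a background no lower than 291.1, the most common value, which held for 272 of the 274 peaks and 879 of 912. The solving and the assignment to a side of the midpoint were tested on simulated data. Shares have exact Clopper-Pearson intervals at 95%, which treat peaks or genes as independent. No test was run, since each group has 1 library. The 22 gene lists, the members and the rule for named genes were chosen with earlier results of these data known; 2 list names were not matched. Named genes are those of the 20 strongest members, the 2 strongest per list, genes with 2 peaks or peaks on both sides of the midpoint, and the widest, weakest, farthest-reaching and border cases; other genes were chosen after their values were seen. No sequence was used. Python 3.11.15, pandas 2.3.3, scipy 1.17.1 and matplotlib 3.10.9 were used.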

Additional observations from a re-analysis of the deposited data

How the results depend on the processing

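Of 70 values under 11 alternatives, 57 stayed within the interval of the reported value or within 1.5 times a reported count, and 13 moved. The 3′-side share of 61.2% was 70.3% with the peak's midpoint in place of its summit, 69.1% among the stronger part of the list by fold, and, for the last 33.3% of the gene, 42.2%. The count of 274 was 65 and that of ribosomal protein genes 7 (45 before) in the stronger part. The median fold of 1.36 was 1.45 at a −log10 q of at least 5 and 1.83 in the stronger part, as the construction of these subsets fixes. The share past the gene end, 74.1%, was 83.8%, 95.4% and, for the last 33.3% of the gene, 79.4%. The share in a neighbour's 500 bp was 9.62% by midpoint and 1.46% at 250 bp. With peaks over non-coding RNA genes kept, 6.36% lay within 1 kb of one. The longer gene, summits in 1 gene, shared peaks kept, and a 500 bp margin to untagged peaks moved no value. The share within 1 kb is 0 by construction where such peaks are left out, so it was not computed. No paired analysis was possible because each group has 1 library. Depth limits weak peaks in the untagged list, and no value covers a repeat of a library.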

Other observations

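Several small pathways, chosen after the values were seen, had 3′-side peaks at most of their genes, beside 4.53% of all genes; the choice fixes this, so the counts are a description. All 4 genes of glycerol synthesis did: GPD1 with a fold of 2.17 (2.02 to 2.33), GPP1 with 2.00 (1.85 to 2.16), GPP2 with 1.43 (1.30 to 1.57) and GPD2 with 1.42 (1.29 to 1.55). The isoforms GPD1 and GPP1 lay above GPD2 and GPP2, with intervals that did not overlap. In trehalose synthesis it was 3 of 4, TPS2 with 1.83 (1.68 to 1.99), TSL1 with 1.68 (1.54 to 1.83) and TPS1 with 1.56 (1.43 to 1.70), and the regulatory subunit gene TPS3 met no peak. The glycine cleavage genes GCV1, GCV2 and GCV3 each had one, and LPD1 lay in a peak over a non-coding RNA gene.

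Of the eisosome genes, for the furrows of the plasma membrane, NCE102 had 1.88 (1.73 to 2.03), LSP1 1.85 (1.71 to 1.99) and SUR7 an interval of 1.37 to 1.63, and PIL1 had a 5′-side peak. Vacuolar protease genes had 5 of 6, PEP4 with 1.62 (1.48 to 1.77), APE3 with 1.49, PRB1 with 1.31, APE1 with 1.23 and PRC1 with 1.22, and CPS1 had none. Antioxidant genes had 6 of 13, where after TSA1 and SOD1 came TRX2 with 1.72 (1.59 to 1.87), GRX2 with 1.36, SOD2 with 1.33 and CCS1 with 1.28; AHP1 and TRX1 lay in peaks shared with the untagged list. Of 7 genes for factors at the ribosome exit, EGD1 with 1.40 (1.27 to 1.54), SSB1, EGD2 with 1.35 and SSB2 had one, and BTT1, SSZ1 and ZUO1 met none.

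Of the 272 genes, 148 were in none of the 22 lists. Among the 115 peaks with the summit between genes, a gene end was nearer than a gene start at 60 and a start at 55.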
